A study of Mus musculus with 38 samples.

Results

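Myeloid cells are the white blood cells of the macrophage, monocyte, dendritic cell and granulocyte lines, and those analysed here were sorted from the dorsal skin of mutant and wild type mice at postnatal day 56 (P56). The comparison rested on 4 of the 38 bulk RNA sequencing libraries of the series, 2 of mutant and 2 of wild type cells. Its members were the protein-coding genes with 1 FPKM or more in at least 2 of these 4 libraries, which were 11150 of the 15426 in the myeloid table. FPKM counts the fragments read from a gene relative to the length of its transcript and the total of its library. Mutant mice carried Tyr-NrasQ61K, in which the regulatory region of the tyrosinase gene drives an oncogenic *Nras* in melanocytes, and they are a model of the congenital pigmented nevus. Wild type mice carried no such transgene, and their hair follicles rest (telogen) at P56. The labels call the groups mutant and wild type and give the tissue as myeloid cells of dorsal skin. The sources used here do not say how these cells were sorted. The design does not hold the hair cycle stage of the mutant skin fixed, so that genotype and stage cannot be told apart at P56. A further 2 libraries of wild type myeloid cells at P30, an age of follicle growth (anagen), shared the estimate of the spread, and their levels are given beside those at P56 as a description.

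Skin macrophages sit around vessels, nerves and hair follicles, where they take up debris and dying cells and secrete chemokines, growth factors and matrix enzymes. Dendritic cells and the Langerhans cells of the epidermis display peptides to T cells on class II molecules, and monocytes enter from the blood and can become either. Macrophages that handle much lipid and lysosomal cargo are known for a shared set of genes that includes *Trem2*, *Gpnmb*, *Fabp5* and *Spp1*, while resting tissue macrophages are known for scavenger receptors such as *Cd163* and *Mrc1*. *Spp1* encodes osteopontin, a secreted glycoprotein that binds CD44 and integrins.

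Across genes, log2(FPKM + 1) correlated at 0.994 between the mutant libraries and 0.996 between the wild type P56 libraries, and at 0.933 between mutant and wild type P56 libraries. Mutant libraries correlated at 0.966 to 0.968 with wild type P30 libraries, and wild type P56 libraries at 0.9565 to 0.9603 with those of P30. These coefficients run across genes, which are not independent replicates. No library repeated another, and since the table holds no read totals, sequencing depth is unknown. The study's methods describe the sorted cells as biological triplicates, but 2 libraries per group are present. The labels do not tie a library to an animal. The p-values cover only the spread of these libraries, part of which may be technical. Differences below are log2(FPKM + 1) of mutant minus wild type, with adjusted p-values from limma after Benjamini and Hochberg over all 11150 genes, and a gene was called at an adjusted p under 0.05 and a 2-fold change. On this scale the change of genes with low values is understated.

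Among the genes higher in mutant cells were *Spp1*, the lipid handling genes *Gpnmb* and *Trem2* and the chemokine *Ccl5*, and among the lower ones the scavenger receptors *Cd163* and *Mrc1*. Of the 11150 genes tested, 936 (8.39%) were called higher and 2121 (19.0%) lower in mutant cells. The 2 libraries of one genotype did not overlap with those of the other in 9743 genes (87.4%). Without the fold threshold 23.0% were higher and 43.0% lower at an adjusted p under 0.05. The surplus of lower calls depended on scaling. Over all genes the median difference was -0.27 as deposited, and median-ratio rescaling, which sets the typical gene to the same level in each library, moved it to 0.01 and gave 1468 genes higher (13.2%) and 1332 lower (11.9%). All 936 higher genes and 62.8% of the lower genes held their call after rescaling. Rescaling raised the levels of mutant and lowered those of wild type P56 libraries, so that higher calls could hardly be lost by it. That all of them were kept therefore says little about their stability.

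The differences also followed transcript length. Genes with a longest coding transcript of at most 1000 bases had a median difference of 0.50, and 21.5% of these 750 genes were called higher and 5.07% lower. Among the 497 genes over 8000 bases the median was -0.90, with 2.21% called higher and 46.3% lower. Each longer class in between had a lower median than the one before it, and across genes Spearman's rho of difference and length was -0.39. The same slope, less steep, was present in CD45+ immune cells (medians 0.48 to -0.24 for mutant minus wild type P56) and between wild type P30 and P56 myeloid cells (0.04 to -0.36). With the trend with length removed, an alternative chosen after seeing the data, 1290 of 11045 genes were higher (11.7%) and 986 lower (8.93%). Rescaling took away no higher call, so only removal of the trend reduced the higher count in all 3 settings. Called in all 3 settings, as deposited, rescaled and with the trend removed, were 835 genes higher (7.49%) and 828 lower (7.43%). Counts of list members called below stand beside these shares of all genes, and those as deposited beside 8.39% and 19.0%. The 107 ribosomal protein genes, which are short, summed to 65246 and 65879 FPKM in wild type and 103784 and 101080 FPKM in mutant libraries. In the wild type P30 libraries they summed to 103313 and 72865 FPKM, so that 1 wild type library stood at the mutant level and the pair differed widely. Their part in the trend was not tested.

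**Figure D1:**
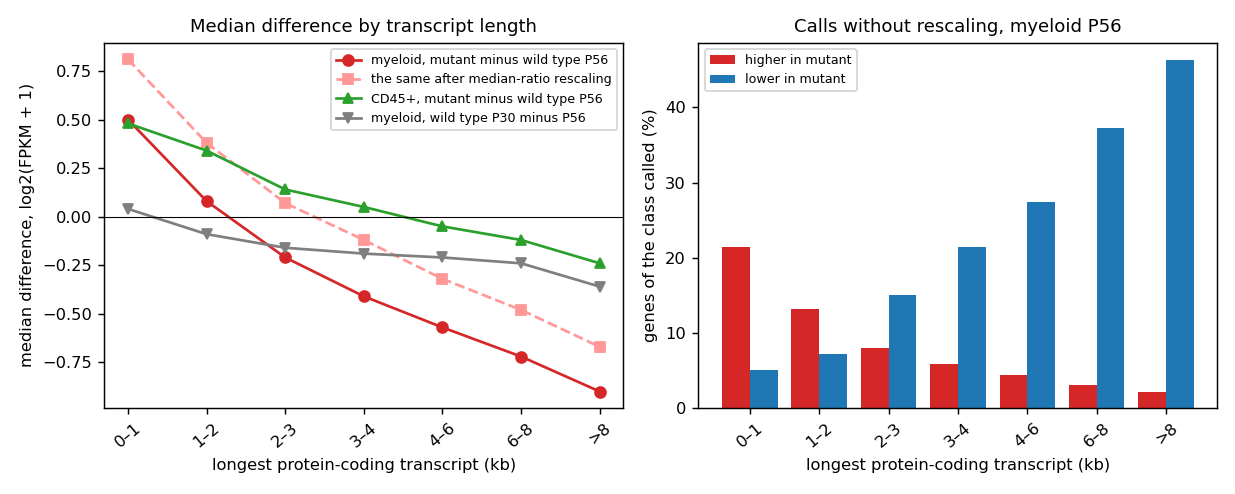
Left, median difference in log2(FPKM + 1) by class of transcript length in kb, for mutant minus wild type P56 myeloid cells as deposited (red) and rescaled (pink), for CD45+ cells (green) and for wild type P30 minus P56 myeloid cells (grey). Right, percent of genes called higher (red) and lower (blue) in mutant myeloid cells, where lower calls climb from 5.07% in the shortest to 46.3% in the longest class.

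The myeloid label was checked against 10 genes that myeloid cells share. All 10 passed the filter, 4 were called lower and 6 were not called. Their summed level was 17618 and 17241 FPKM in wild type and 9613 and 9818 FPKM in mutant libraries, and none of them was at 0 in either group. *Lyz2* is among the 10, and its fall, of uncertain level as given below, was larger than the fall of the sum. The sum over the other markers was therefore not lower in mutant libraries. *Itgam*, the integrin CD11b, was 33.1 and 33.6 FPKM in the wild type and 17.0 and 16.1 FPKM in the mutant libraries. Its difference of -0.97 (adjusted p = 0.00109) missed the 2-fold threshold. It passed this threshold without mutant replicate 1 (-1.01) but not after rescaling, which made the fall smaller. *Adgre1*, which encodes the macrophage surface protein F4/80, was 281 and 286 FPKM in wild type and 158 and 156 FPKM in mutant libraries. The difference of -0.85 (adjusted p = 5.35e-04) missed the 2-fold threshold as well. *Ptprc*, the pan-leukocyte phosphatase CD45, was called lower with 138 and 147 FPKM against 65.99 and 66.02 FPKM, but not after rescaling (difference -0.77), as was *Cybb*, a subunit of the phagocyte oxidase (-1.26, -0.94 rescaled). In bulk RNA, fewer cells of a type and less RNA per cell cannot be told apart, which holds for every gene described here.

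*Lyz2*, the lysozyme of macrophages and granulocytes, had the largest fall among the genes with a mean of 5 FPKM or more, and its level is uncertain. It was 9086 and 8881 FPKM in the wild type libraries and 19.5 and 18.1 FPKM in the mutant libraries, a difference of -8.83 (adjusted p = 6.16e-08). It was also low, at 10.8 and 12.4 FPKM, in the wild type libraries of P30. *Lyz1*, a near-identical neighbour gene chosen after its values were seen, was 1559 and 1561 FPKM in wild type, 2164 and 2163 FPKM in mutant and 1353 and 1804 FPKM in wild type P30 libraries. The groups did not overlap for either gene, but only *Lyz2* was called. The coding sequences of both genes are 447 bases long, differ at 22 positions (95.1% identity) and share an identical run of 118 bases, so that reads can be split between the copies in ways the table does not show. The stretch of positions 61 to 120, counted from the first base of the start codon, holds 9 of the differing bases, which are in capitals. It is shown because within the coding sequences only such bases tell reads of the copies apart. The untranslated parts of the transcripts were not compared.
Lyz2: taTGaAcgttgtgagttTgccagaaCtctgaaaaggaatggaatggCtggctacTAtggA
Lyz1: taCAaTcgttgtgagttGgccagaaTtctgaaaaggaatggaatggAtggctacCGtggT
Both sequences are of the GRCm38 transcripts, 5′ to 3′. *Lyz2* lies at ENSMUSG00000069516.7, chr10:117277331-117282321 and *Lyz1* at ENSMUSG00000069515.5, chr10:117287797-117292868, and the part of read assignment in the difference was not tested.

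Genes that mark other cells of skin were also present, and their sums moved with genotype. The sum over 11 melanocyte markers was 7.45 and 8.74 FPKM in wild type and 483 and 473 FPKM in mutant libraries, and 9 of the 10 that passed the filter were called higher. *Dct*, an enzyme of melanin synthesis, rose from 0.66 and 0.29 FPKM to 169 and 164 FPKM (6.84, adjusted p = 1.19e-06), and *Tyrp1*, a second such enzyme, from 0.03 and 0 FPKM to 53.04 and 50.05 FPKM. *Mlana*, a melanosome protein, was listed at 0 in both wild type libraries and stood at 179 and 176 FPKM in the mutant ones. In the table of sorted mutant melanocytes, which was normalized separately, *Dct* stood at 5995 and 5620 FPKM, so that its mean in mutant myeloid libraries was 2.86% of that level, with 2.43% for *Mlana* and 3.09% for *Tyrp1*. For *Spp1* the same share was 259.0%, with 233.96 and 219.42 FPKM in the melanocyte libraries, and for *Gpnmb*, which melanocytes also express, it was 19.2%.

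Haemoglobin genes, which mark red cells, were also higher in the mutant libraries, and the source of their reads was not tested. The sum of 5 erythroid markers was 6.95 and 7.90 FPKM in wild type and 187 and 174 FPKM in mutant libraries, and all 4 that passed the filter were called higher, among them *Hba-a2* at 3.38 and 3.8 against 82.3 and 88.5 FPKM. Fibroblast markers summed to 195 and 203 against 443 and 431 FPKM, with 6 of 9 called higher, such as the collagen gene *Col1a1* at 19.3 and 18.7 against 49.7 and 48.7 FPKM. Mast cell and basophil markers summed to 65.4 and 61.4 against 155 and 158 FPKM, with 6 of 9 called higher, while wild type P30 libraries stood above both at 922 and 963 FPKM. T, NK and innate lymphoid markers summed to 66.8 and 62.0 against 165 and 164 FPKM, with 6 of 11 called higher, led by *Gzma* (3.27), a granzyme of cytotoxic lymphocytes, and 1 called lower. Of the few eosinophil, B cell and mural cell markers that passed, 3 each, 2, 2 and 1 were called higher, and of 5 Schwann cell markers 2 were called higher and 1 lower. Of 7 keratinocyte markers that passed, 4 were called higher and 1, *Krt15*, lower (-2.26). Of 3 endothelial markers that passed, none was called, although *Flt1*, a VEGF receptor, lay near the threshold (-0.91) and passed it in some settings. The part of these cells in the differences of other genes was not tested.

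**Figure D2:**
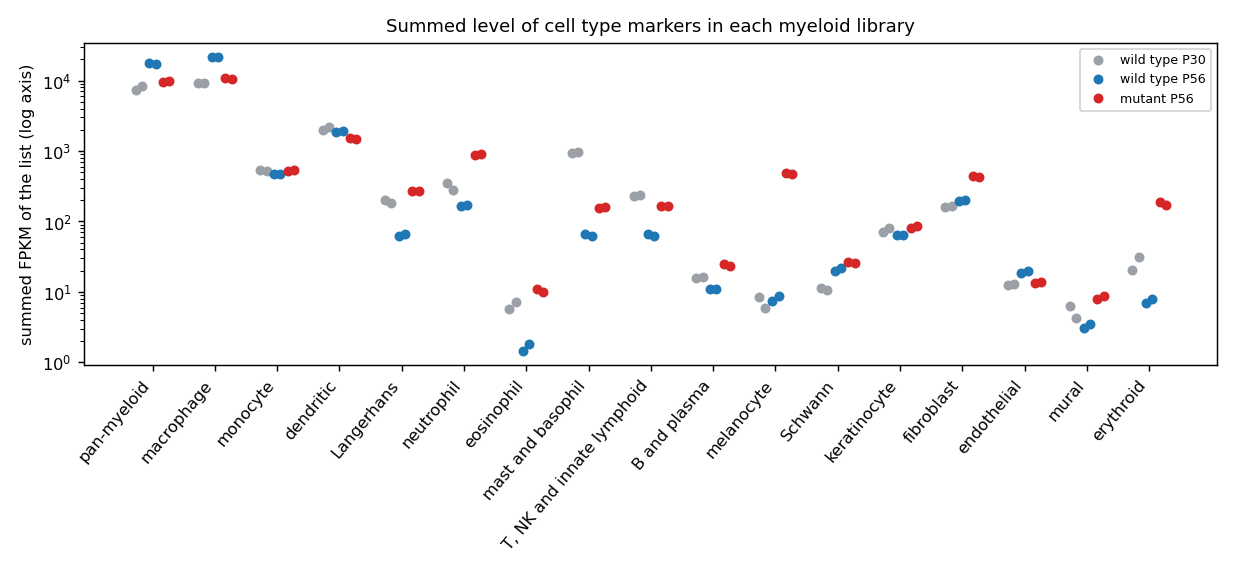
Summed FPKM of each marker list (log axis) in the 6 myeloid libraries, 1 point a library, grey for wild type P30, blue for wild type P56 and red for mutant P56. Melanocyte markers sat at 7.45 and 8.74 FPKM in wild type and at 483 and 473 FPKM in mutant P56 libraries, while macrophage markers summed to 21324 and 21300 FPKM in wild type and 10822 and 10656 FPKM in mutant P56 libraries.

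*Spp1* (ENSMUSG00000029304.14, chr5:104435118-104441050) rose in the mutant cells. It was 20.4 and 18.5 FPKM in the wild type libraries and 594 and 581 FPKM in the mutant libraries, with 201 and 255 FPKM in the wild type libraries of P30. The mutant libraries stood above all others, and the P30 libraries lay between the P56 groups. The difference at P56 was 4.85 (95% interval 4.56 to 5.14, adjusted p = 1.58e-06), and it was 5.16 after rescaling and 4.81 with the length trend removed. Of the 9 genes of osteopontin and its receptors that were tested, 2 were called higher and 2 lower, and 2 and 0 in all 3 settings. As deposited each count was 22.2%, against 8.39% higher and 19.0% lower of all genes. *Itgav*, the alpha chain of the integrins that bind osteopontin at its RGD motif, rose from 4.5 and 3.85 FPKM to 16.3 and 19.5 FPKM (1.87, adjusted p = 7.38e-05). *Cd44*, the receptor that osteopontin shares with hyaluronan, was 163 and 172 FPKM in wild type and 168 and 163 FPKM in mutant libraries. As deposited these overlapped (difference -0.02, 95% interval -0.19 to 0.16). *Itgb1*, the beta chain that pairs with many integrins, differed by -0.10 as deposited (95% interval -0.30 to 0.10). Rescaling raises mutant minus wild type for all genes, so the intervals of *Cd44* and *Itgb1* hold only as deposited. Neither gene was called after rescaling. *Itga4* and *Itga9*, alpha chains of 2 further osteopontin receptors, were called lower (-1.27 and -1.44), but the first lost its call after rescaling and both did with the length trend removed. *Nras* itself was 31.9 and 31.5 FPKM and 47.2 and 46.9 FPKM, a difference of 0.55 that was not called as deposited (1.09 and called higher with the length trend removed). The sources used here do not say whether reads of the transgene count under this gene.

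Of 24 lipid uptake and handling genes tested, 11 rose and none fell, the same in all 3 settings, with a median difference of 0.88 (1.2 rescaled). *Gpnmb* (ENSMUSG00000029816.10, chr6:49036546-49070929), a transmembrane glycoprotein of lysosomes and melanosomes, went from 4.9 and 4.04 FPKM to 225 and 215 FPKM (5.34, adjusted p = 6.56e-07), with 37.8 and 38.9 FPKM at wild type P30. *Trem2* (ENSMUSG00000023992.14, chr17:48346401-48354147), a receptor for lipids and apoptotic cells, went from 23.8 and 27.6 FPKM to 255 and 249 FPKM (3.25, adjusted p = 7.76e-06). For *Trem2* the wild type P30 libraries, at 19.9 and 26.1 FPKM, lay around the wild type P56 values, well under the mutant ones. The fatty acid binding proteins rose together. *Fabp5* stood at 117 and 113 FPKM in wild type and 1332 and 1323 FPKM in mutant libraries (3.52, adjusted p = 1.13e-06), and *Fabp4* at 6.09 and 6.5 FPKM against 112 and 99.1 FPKM (3.87). *Apoc2*, the activator of lipoprotein lipase, rose by 3.08 and *Nr1h3*, the oxysterol receptor LXR alpha, by 2.28. *Apoe*, the apolipoprotein that macrophages secrete and 1 of the 10 genes with the highest mean, was 9991 and 9705 against 8131 and 8306 FPKM and was not called (difference -0.26, 95% interval -0.53 to 0.00).

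Of 24 lysosome genes, 8 rose and 3 fell (7 and 2 in all 3 settings), with a median of 0.23 (0.56 rescaled). The members that changed most are known from bone-resorbing osteoclasts. *Acp5*, tartrate-resistant acid phosphatase, was 4.1 and 2.72 FPKM in wild type, 97.8 and 101 FPKM in mutant and 9.6 and 12.5 FPKM in wild type P30 libraries (4.52, adjusted p = 6.51e-06). *Atp6v0d2*, a subunit of the proton pump, was 1.81 and 1.83 against 40.4 and 40.2 FPKM (3.87), and *Ctsk*, the collagen-degrading cathepsin K, was 5.17 and 5.09 against 77.4 and 69.96 FPKM (3.61). For all 3 of these genes the wild type P30 libraries stood nearer to the wild type P56 libraries than to the mutant ones. *Ctsd* and *Ctsl*, proteases of general lysosomal breakdown, rose by 2.46 and 2.15.

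**Figure D3:**
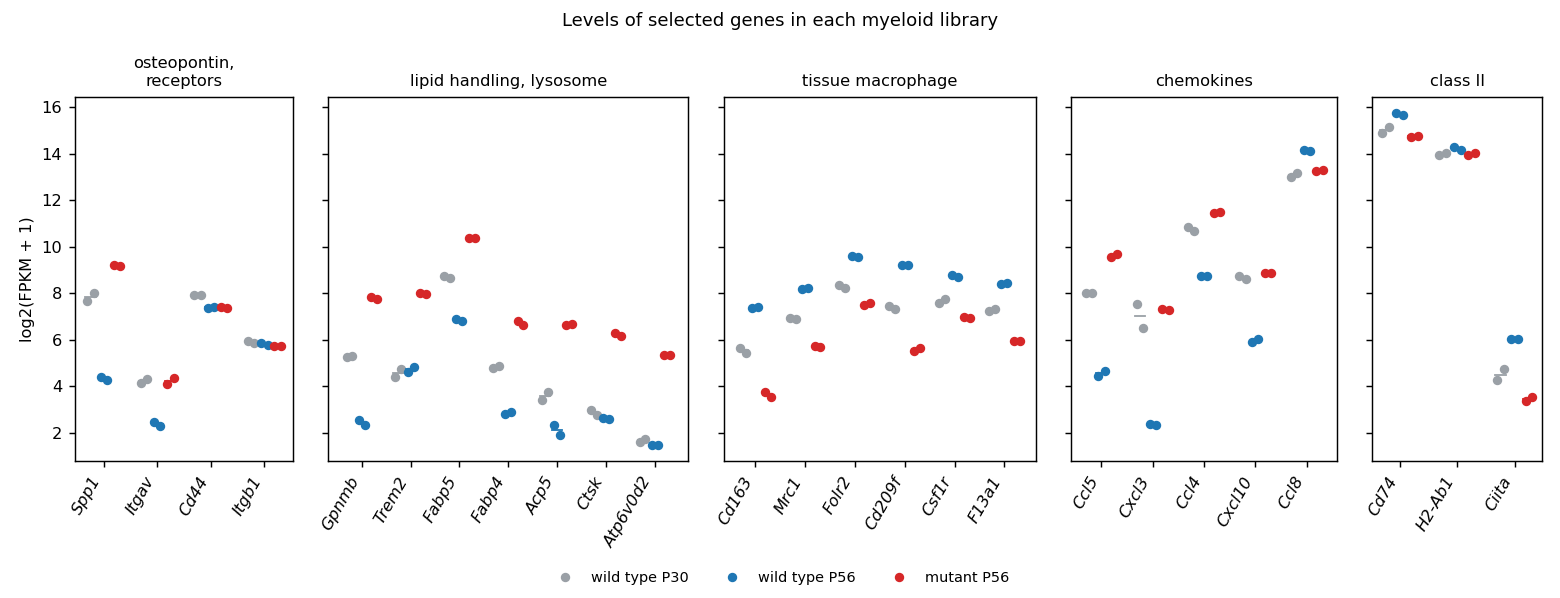
log2(FPKM + 1) of genes of each role in the 6 myeloid libraries, 1 point a library with a bar at the group mean, grey for wild type P30, blue for wild type P56 and red for mutant P56. Values are as deposited. *Acp5*, *Ctsk* and *Atp6v0d2* are highest in mutant libraries, *Cd163* and *Cd209f* are lowest there, and *Cd44* lies at one level in both P56 groups before rescaling.

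Many genes of resting tissue macrophages fell. Of 18 macrophage markers, 11 were called lower and none higher, 9 and 0 in all 3 settings, and the median was -1.39 (-1.10 rescaled). *Cd163* (ENSMUSG00000008845.9, chr6:124304656-124330527), the scavenger receptor for haemoglobin bound to haptoglobin, was 164 and 167 FPKM in wild type and 12.4 and 10.6 FPKM in mutant libraries (-3.74, adjusted p = 2.36e-06), with 49.2 and 42.5 FPKM at wild type P30. *Mrc1*, the mannose receptor CD206, fell from 291 and 297 FPKM to 52.99 and 50.01 FPKM (-2.49, adjusted p = 2.36e-06). The C-type lectin *Cd209f* fell from 586 and 595 FPKM to 45.2 and 49.5 FPKM (-3.61), and its paralog *Cd209g*, from whose reads it may not be fully parted, fell by 4.21. *Folr2*, a folate receptor of perivascular macrophages, differed by -2.03, and *F13a1*, coagulation factor XIII, by -2.47. In each of these genes the mutant libraries were the lowest of the 6 and the wild type P56 libraries the highest, with P30 between them. *Maf*, a transcription factor of tissue macrophages, differed by -1.94. *Csf1r*, the receptor for the macrophage growth factors CSF1 and IL-34, was 435 and 414 FPKM against 126 and 121 FPKM (-1.77, adjusted p = 1.52e-05).

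The markers of other myeloid types moved in their own ways. Of 12 dendritic cell markers 4 rose and 2 fell (4 and 1 in all 3 settings). As deposited these were 33.3% and 16.7%, against 8.39% and 19.0% of all genes. *Ccr7*, the receptor by which dendritic cells travel to lymph nodes, rose from 170.2 and 172 FPKM to 692 and 691 FPKM (2.01, adjusted p = 3.31e-06) and was 935 and 939 FPKM at wild type P30. *Clec9a* and *Xcr1*, which mark cross-presenting dendritic cells, rose by 1.74 and 1.26 from 3.39 and 2.38 and from 4.1 and 4.22 FPKM. *Cd209a*, a lectin of monocyte-derived dendritic cells, fell (1128 and 1142 against 401 and 390.4 FPKM, -1.52). Of 4 Langerhans cell markers 3 rose, with *Cd207*, the lectin langerin that defines these cells, at 36.9 and 40.5 against 219 and 226 FPKM (2.49, adjusted p = 4.50e-06). Of 11 monocyte markers 4 rose (36.4%) and 2 fell (18.2%), 2 and 0 in all 3 settings. *F10*, coagulation factor X, went from 6.92 and 7.75 to 80.2 and 75.6 FPKM (3.24), while *Ccr2*, the receptor for CCL2, fell by 1.29 as deposited and lost its call after rescaling (-0.96). The calprotectin genes *S100a8* and *S100a9*, abundant in neutrophils and monocytes, rose by 2.53 and 2.61, as the 2 called of 5 neutrophil markers tested. The other 5 neutrophil markers, *Ly6g*, *Cxcr2*, *Ngp*, *Camp* and *Ltf*, which are named for their count after their values were seen, did not pass the filter, and *Ly6g*, which defines these cells, was 0.09 and 0.30 FPKM in wild type and listed at 0 in both mutant libraries.

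Of 25 chemokines tested, 11 rose (44%, against 8.39% of all genes) and 5 fell (9 and 3 in all 3 settings), with a median of 0.89 (1.21 rescaled). *Ccl5* (ENSMUSG00000035042.2, chr11:83525778-83530518), a chemokine that draws T cells and monocytes, rose from 21.1 and 24.2 FPKM to 747 and 813 FPKM (5.05, adjusted p = 5.11e-07), and wild type P30 libraries held 257 and 255 FPKM. *Cxcl3*, a ligand of the neutrophil receptor CXCR2, was 4.14 and 4.09 FPKM in wild type and 162 and 154 FPKM in mutant libraries (4.96, adjusted p = 2.59e-05). Its wild type P30 libraries were uneven, at 185 and 90.6 FPKM. *Ccl4*, an inflammatory chemokine of macrophages, rose by 2.75 to 2813 and 2904 FPKM, and *Cxcl10*, a ligand of CXCR3, by 2.9. *Cxcl13*, which draws B cells, fell from 7.79 and 7.21 FPKM to 0.76 and 0.47 FPKM (-2.4). *Ccl8*, the most abundant chemokine, was 18237 and 17872 against 9875 and 10069.8 FPKM and was not called as deposited or rescaled (-0.86 and -0.53), but was called lower with the length trend removed (-1.42). Of 13 chemokine receptors 9 rose (69.2%) and 2 fell (9 and 0 in all 3 settings). *Ccr1*, the receptor for CCL5 and other inflammatory chemokines, was 9.31 and 8.48 FPKM in wild type and 98.9 and 99.1 FPKM in mutant libraries (3.34, adjusted p = 2.36e-06), *Ccrl2*, an atypical receptor that binds chemerin, rose by 2.04 and *Cxcr6*, the receptor for CXCL16, by 1.94.

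Of 18 inflammatory cytokines and mediators, 8 rose and 3 fell in all 3 settings. *Il1a*, interleukin 1 alpha, rose from 2.73 and 3.11 FPKM to 31.5 and 36.01 FPKM (3.15, adjusted p = 5.28e-06), and *Il1rn*, which encodes the antagonist of the same receptor, from 138 and 139 to 730.5 and 722 FPKM (2.39). *Il10*, an anti-inflammatory cytokine, rose by 2.17, and *Il33*, an alarmin usually of stromal cells, by 1.76 to 3.68 and 2.56 FPKM. *Tgfb1*, a cytokine that restrains immune cells and acts on matrix-producing cells, went the other way, from 69.8 and 74.4 FPKM to 6.71 and 7.5 FPKM (-3.17, adjusted p = 3.10e-06). Of 14 growth factors tested 5 rose and 1, again *Tgfb1*, fell in all 3 settings. *Gdf15*, a stress-induced member of the TGF beta family, rose from 47.2 and 49.4 FPKM to 270.3 and 278 FPKM (2.48), and was higher still at wild type P30 (442 and 483 FPKM). *Areg* and *Nrg1*, ligands of EGF family receptors, rose by 2.46 and 1.64, and *Vegfa*, the vascular growth factor, by 2.35.

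The genes known for alternative activation of macrophages by interleukins 4 and 13 split. Of 17 tested, 5 rose and 6 fell, 5 each way in all 3 settings. *Arg1*, the enzyme arginase 1, was listed at 0 in both wild type libraries and stood at 22.1 and 22.4 FPKM in the mutant ones, with 0.48 and 0.41 FPKM at wild type P30 (adjusted p = 2.09e-06). *Tgm2*, transglutaminase 2, rose from 8.34 and 8.41 FPKM to 99.1 and 96.4 FPKM (3.4, adjusted p = 7.54e-06). *Clec10a*, a lectin for galactose sugars, fell from 558 and 556 FPKM to 110.03 and 113 FPKM (-2.31), and *Cd163* and *Mrc1* of the macrophage markers fell as given above. Of 16 complement genes 2 rose and 7 fell (2 and 4 in all 3 settings), with a median of -0.71 (-0.38 rescaled). *C4b*, a component of the classical pathway, fell from 115 and 109.9 FPKM to 10.8 and 9.81 FPKM (-3.33, adjusted p = 2.09e-06). *C2*, the partner of C4 in the classical convertase, differed by -1.58, while *Cfd*, the protease factor D, rose by 2.41 to 9.82 and 9.68 FPKM.

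Interferon response genes rose in part. Of 19 tested, 8 rose and 2 fell, the same in all 3 settings, and the median of 0.14 (0.46 rescaled) stood beside -0.27 (0.01 rescaled) over all genes. *Rsad2*, the antiviral enzyme viperin, rose from 6.13 and 6.24 FPKM to 96.5 and 95.6 FPKM (3.76, adjusted p = 1.19e-06), with 47.4 and 50.2 FPKM at wild type P30. *Oasl1*, a regulator of interferon output, rose from 9.5 and 9.71 FPKM to 181 and 182 FPKM (4.1), *Isg15*, a ubiquitin-like modifier, by 2.61 and *Ifit1*, a sensor of foreign RNA ends, by 2.64. Among the genes that fell was *Stat2*, a signal transducer of the interferon receptor chosen after its values were seen. It was 19.2 and 17.97 FPKM in wild type and 5.64 and 5.52 FPKM in mutant libraries (-1.57, adjusted p = 6.09e-05). *Ifnb1*, the gene of interferon beta, was 1 of the 15 with the largest rise, from 0.24 and 0.41 FPKM to 83.4 and 79.2 FPKM (5.96, adjusted p = 5.28e-06), and stood at 20.9 and 12.2 FPKM at wild type P30.

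The promoters of these genes were read for the letters of the interferon response element, which are GAAA, any 2 letters and GAAA, on both strands from 250 bases before to 50 after the gene's start in RefSeq (GRCm38.p6). The motif was in 5 of the 8 promoters of interferon response genes that rose and in 4 of the 8 of the list that did not rise and have a promoter in the table, against 3.49% of 27025 promoters. Among the 4 was *Stat2*, so the letters stood in promoters of genes that rose and of 1 that fell. In *Isg15* 3 overlapping matches lay together, and in *Rsad2* there was 1 match, 120 bases before the start. Counts of lipid handling and lysosome genes that follow cover only those with a promoter in the table. The letters GAGGAAGT, a site bound by the myeloid factor PU.1, were in both promoters of the osteopontin list that belong to genes that rose (*Spp1* and *Itgav*). They were in none of the 7 others, against 3.28% of all promoters, and in none of the 9 lipid handling genes that rose and none of the 8 others. The AP-1 letters TGANTCA were in *Trem2* and *Gpnmb* among 9 lipid handling genes that rose and have a promoter in the table, and in 1 of 8 that did not rise, against 7.93%. The E-box CACGTG was in 3 of 7 lysosome genes that rose and have a promoter in the table (*Ctsd*, *Ctsl* and *Gla*). It was in 2 of 12 others, against 7.24%, and in 1 of 9 lipid handling genes that rose and 1 of 8 others. The M-box core TCATGTG was in 2 of the 7 lysosome genes that rose and 1 of the 12 others, and in none of the lipid handling genes, against 3.74%. A match is a description of the letters and not of a bound site. The motifs were not among the planned comparisons, and each was read only in some lists, the PU.1 letters in the osteopontin and lipid lists. With 2 genes that rose, the split in the osteopontin list shows only where the letters stand. The promoters of the osteopontin gene, of *Gpnmb* and of 3 interferon response genes are printed 5′ to 3′ on the strand of the gene, with matches in capitals, *Stat2* because it holds the letters and fell. *Spp1* is chr5:104434861-104435160 on the plus strand, *Gpnmb* chr6:49036268-49036567 (plus), *Isg15* chr4:156200769-156201068 (minus), *Rsad2* chr12:26456403-26456702 (minus) and *Stat2* chr10:128270248-128270547 (plus).
Spp1: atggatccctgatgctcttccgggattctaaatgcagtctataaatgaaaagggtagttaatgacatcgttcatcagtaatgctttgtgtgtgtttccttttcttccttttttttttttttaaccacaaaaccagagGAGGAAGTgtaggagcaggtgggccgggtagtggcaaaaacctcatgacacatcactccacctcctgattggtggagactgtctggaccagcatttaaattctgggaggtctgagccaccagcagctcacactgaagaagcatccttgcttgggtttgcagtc
Gpnmb: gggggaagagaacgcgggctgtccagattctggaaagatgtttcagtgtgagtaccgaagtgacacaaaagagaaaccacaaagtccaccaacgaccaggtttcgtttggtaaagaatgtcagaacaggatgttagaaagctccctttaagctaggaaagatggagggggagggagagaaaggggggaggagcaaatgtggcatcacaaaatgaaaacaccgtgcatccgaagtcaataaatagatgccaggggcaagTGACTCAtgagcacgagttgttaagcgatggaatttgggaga
Isg15: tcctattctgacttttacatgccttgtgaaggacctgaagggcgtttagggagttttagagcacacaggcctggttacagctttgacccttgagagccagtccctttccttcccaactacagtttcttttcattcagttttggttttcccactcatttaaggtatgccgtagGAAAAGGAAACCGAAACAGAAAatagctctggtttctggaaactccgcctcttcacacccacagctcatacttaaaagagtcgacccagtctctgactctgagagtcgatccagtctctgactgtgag
Rsad2: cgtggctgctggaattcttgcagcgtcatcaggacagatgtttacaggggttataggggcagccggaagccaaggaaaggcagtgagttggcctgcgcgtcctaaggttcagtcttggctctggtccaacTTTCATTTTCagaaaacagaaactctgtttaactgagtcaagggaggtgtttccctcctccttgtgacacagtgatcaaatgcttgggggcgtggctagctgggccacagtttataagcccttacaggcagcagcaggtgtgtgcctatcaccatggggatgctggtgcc
Stat2: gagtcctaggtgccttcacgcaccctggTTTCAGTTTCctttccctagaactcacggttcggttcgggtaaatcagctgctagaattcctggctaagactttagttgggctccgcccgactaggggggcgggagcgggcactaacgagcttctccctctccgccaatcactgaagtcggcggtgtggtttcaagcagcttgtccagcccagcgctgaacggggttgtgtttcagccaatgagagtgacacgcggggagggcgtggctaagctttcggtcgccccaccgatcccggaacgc

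Few genes that present antigen were called. Of 21 tested, 1 rose and 1 fell, under the 8.39% and 19.0% of all genes, and the median of -0.24 as deposited became 0.09 after rescaling. The class II chains, which hold peptides for helper T cells, were among the most abundant transcripts. *H2-Ab1* was 19799.6 and 18508 FPKM in wild type and 15681 and 16852 FPKM in mutant libraries (difference -0.24, 95% interval -0.49 to 0.01), and *H2-Aa* and *H2-Eb1* differed by -0.07 and -0.08. *Cd74*, the invariant chain that escorts them, was 54734 and 52603 against 26724 and 28107 FPKM. Its difference of -0.97 (adjusted p = 6.95e-04) fell short of the 2-fold threshold. It passed this threshold with the length trend removed (-1.05) or without mutant replicate 2 (-1.01), but not after rescaling, which made the fall smaller. *Ciita*, the transactivator of class II genes, was the 1 that fell, from 64.4 and 64.02 FPKM to 9.43 and 10.7 FPKM (-2.56, adjusted p = 3.59e-05). *Cd274*, the checkpoint ligand PD-L1, was the 1 that rose, from 9.44 and 8.24 FPKM to 32.7 and 33.0 FPKM (1.78). *B2m*, the light chain of class I, was 7999 and 8067 against 12039.8 and 12742 FPKM and was not called.

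Of 18 Fc and phagocytic receptor genes, 6 rose and 4 fell (6 and 2 in all 3 settings). As deposited these were 33.3% and 22.2%, against 8.39% and 19.0% of all genes. *Clec4d*, *Clec4e* and *Clec4n*, neighbouring lectin receptors for microbial glycolipids and mannans, rose by 4.18, 2.66 and 2.27, with *Clec4d* at 18.3 and 18.1 FPKM in wild type and 349 and 345 FPKM in mutant libraries (adjusted p = 1.78e-06). *Gas6*, the bridge between dying cells and the TAM receptors, fell from 278 and 275 FPKM to 62.03 and 61.3 FPKM (-2.15, adjusted p = 5.16e-06). Of 20 pattern recognition genes 2 rose and 3 fell (2 and 0 in all 3 settings), shares near the 8.39% and 19.0% of all genes. *Cd14*, the co-receptor for lipopolysaccharide, rose by 1.66 and *Tlr13*, a receptor for bacterial ribosomal RNA, by 1.1. The 3 that fell, *Tlr8*, *Nod1* and *Tmem173*, lost their call with the length trend removed, and the last 2 after rescaling as well.

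Of 20 matrix proteases and inhibitors tested, 10 rose and 3 fell (10 and 1 in all 3 settings), with a median of 1.02 (1.34 rescaled). *Mmp12* (ENSMUSG00000049723.14, chr9:7344381-7369499), the elastase of macrophages, went from 82.8 and 83.1 FPKM to 912 and 904 FPKM (3.44, adjusted p = 1.78e-06), and wild type P30 libraries held 320.5 and 275 FPKM. *Mmp19*, another metalloproteinase, rose from 4.83 and 4.41 to 49.1 and 54.04 FPKM (3.23) and *Timp1*, which inhibits such enzymes, from 5.46 and 4.95 to 54.4 and 55.1 FPKM (3.17). *Thbs1*, the matrix protein thrombospondin 1, rose by 3.08. *Mmp9* (ENSMUSG00000017737.2, chr2:164940780-164955850), gelatinase B, fell in contrast, from 29.1 and 26.2 FPKM to 2.01 and 2.35 FPKM (-3.17, adjusted p = 1.21e-05), and its wild type P30 libraries stood at 4.03 and 5.11 FPKM, close to the mutant ones.

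Among 24 macrophage transcription factors 4 rose and 7 fell, 4 each way in all 3 settings, and the median of -0.09 became 0.20 after rescaling. *Id2*, an inhibitor of helix-loop-helix factors, rose from 155 and 162 FPKM to 942 and 883 FPKM (2.51, adjusted p = 3.49e-06), and *Bhlhe40* and *Bhlhe41*, related repressors, by 1.48 and 1.99. *Klf4*, a factor of monocyte differentiation, fell from 101 and 103 FPKM to 18.5 and 18.7 FPKM (-2.4, adjusted p = 3.57e-06). Immediate early and stress genes, transcription factors and their feedback regulators that respond fast to stimuli, had the largest share of lower calls among the pathway lists, 10 of 20 with 1 higher (8 and 1 in all 3 settings) and a median of -1.06 (-0.74 rescaled). *Egr1* was 406 and 412 FPKM in wild type and 58.96 and 61.6 FPKM in mutant libraries (-2.74, adjusted p = 2.09e-06), *Fos* was 3425 and 3482 FPKM against 989 and 980.1 FPKM (-1.81), *Fosb* differed by -2.27 and *Zfp36*, which destabilizes cytokine transcripts, by -2.02. The 1 that rose was *Dnajb1*, a heat shock co-chaperone (55.04 and 56.3 against 307 and 293 FPKM, 2.41), and *Hspb1*, a small heat shock protein outside the list, was 1 of the 15 with the largest rise (15.8 and 18.4 against 1151 and 985 FPKM, 5.88). Wild type P30 libraries held 457 and 451 FPKM of *Hspb1*, far above the wild type P56 level.

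Of 20 glycolysis and hypoxia genes 9 rose and none fell in all 3 settings, with a median of 0.75 (1.06 rescaled). *Slc2a1*, the glucose transporter GLUT1, rose from 18.97 and 17.3 FPKM to 97.1 and 100.3 FPKM (2.38, adjusted p = 1.09e-05), *Pgk1* and *Pgam1*, enzymes of the lower pathway, by 1.76 and 1.43, and *Egln3*, an oxygen-sensing hydroxylase, by 2.7. *Hilpda*, a hypoxia-induced protein of lipid droplets, rose from 319 and 324 FPKM to 1081 and 1081 FPKM (1.74). The ferritin heavy chain *Fth1*, the iron store and 1 of the 10 genes with the highest mean, was 6252 and 6462 FPKM in wild type and 27485 and 27959 FPKM in mutant libraries (2.12, adjusted p = 1.75e-05), and *Hmox1*, which splits haem, rose by 1.54. The light chain *Ftl1* was 12722 and 12548 against 21820.3 and 22519.7 FPKM and was called only after rescaling (0.81 as deposited, 1.14 rescaled). Of 15 iron and haem genes 3 rose and 3 fell in all 3 settings, the falls being *Cd163*, *Tfrc*, the transferrin receptor (-1.88), and *Cp*, the ferroxidase ceruloplasmin (-2.04).

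Few cell division genes were called. Of 30 tested, 1 rose and 2 fell (1 and 1 in all 3 settings), under the shares of all genes. *Mki67*, the proliferation antigen, was 3.45 and 3.8 FPKM in wild type and 0.82 and 1.0 FPKM in mutant libraries (-1.28, adjusted p = 3.70e-04), and its call was lost with the length trend removed (-0.37). *Aurkb*, a mitotic kinase, fell by 1.61 and *Cenpa*, a centromeric histone, rose (1.82). Of 12 senescence and cycle inhibitor genes 5 rose and 1 fell (5 and 0 in all 3 settings). *Cdkn2b*, the cycle inhibitor p15, was listed at 0 in both wild type libraries and stood at 7.21 and 5.45 FPKM in the mutant ones, with 1.02 and 2.97 FPKM at wild type P30 (adjusted p = 2.76e-04). *Lmnb1*, a nuclear lamin whose loss marks senescent cells, rose from 7.09 and 6.24 FPKM to 31.1 and 29.1 FPKM (2.02). *Cdkn2a* is not in the table. Of 14 clock genes 4 rose and 3 fell (4 and 1 in all 3 settings), with *Clock* down by 2.13 and *Cry1* up by 1.12. As deposited the shares were 28.6% and 21.4%, against 8.39% and 19.0% of all genes. In the myeloid growth factor axis of 11 genes, 2 rose and 2 fell (2 and 1 in all 3 settings), each 18.2% against 8.39% and 19.0% of all genes. *Csf2rb* and *Csf2rb2*, the beta chains of the receptors for GM-CSF, interleukin 3 and interleukin 5, rose by 1.01 and 1.06. *Csf2ra*, the alpha chain of the GM-CSF receptor, fell by 1.21 as deposited, and its difference of -0.89 after rescaling missed the 2-fold threshold. *Csf2rb* missed this threshold without wild type P56 replicate 2 (0.99). Since *Csf2rb* and *Csf2rb2* are close paralogs, the division of reads between them is uncertain.

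**Figure D4:**
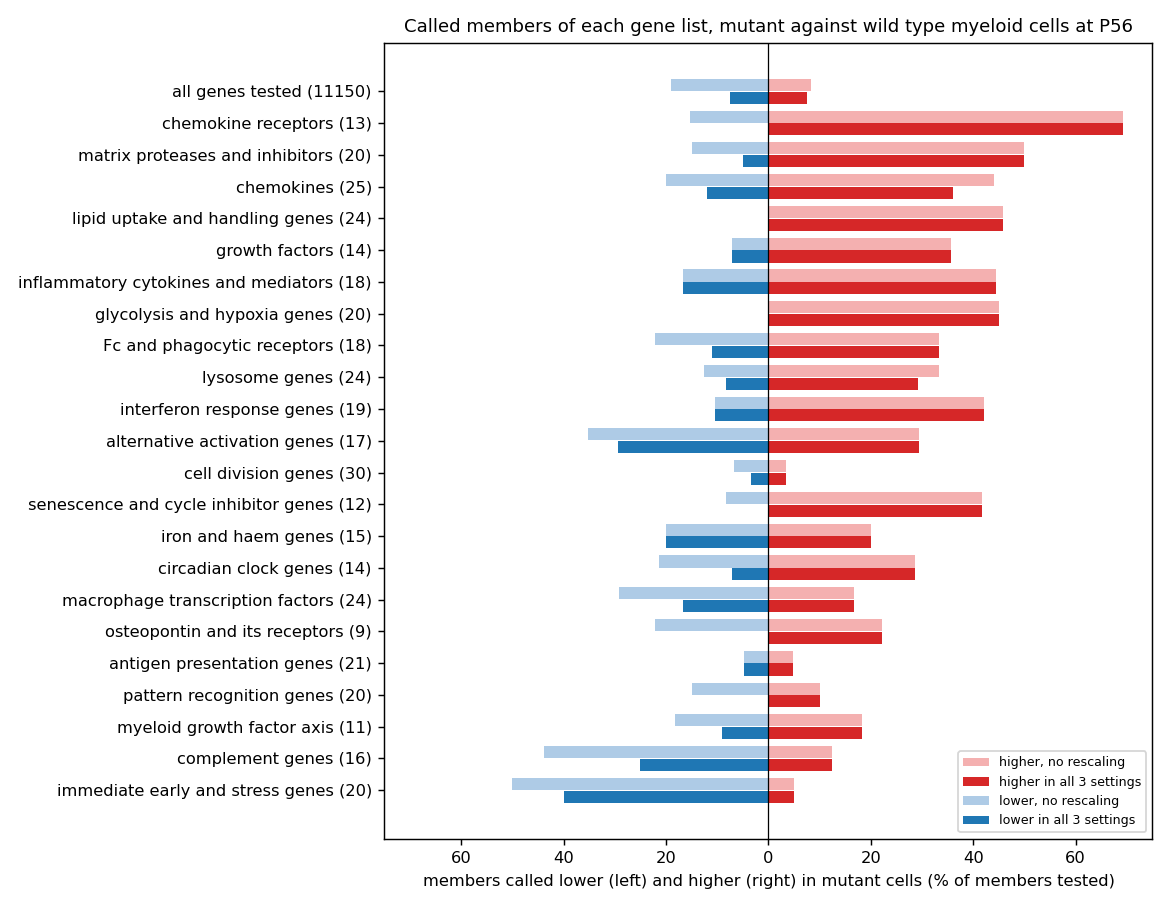
Percent of the tested members of each gene list called lower (left, blue) and higher (right, red) in mutant cells, with pale bars as deposited, dark bars in all 3 settings, the number tested in brackets and all genes at the top. Chemokine receptors (69.2%) had the largest share of higher calls and immediate early genes (50%) the largest of lower calls among the pathway lists.

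The genes with the largest changes beyond these lists were of mixed origin. Among the 15 largest rises, *Gzmc*, a granzyme, went from 0.36 and 0.20 FPKM to 179 and 176 FPKM (7.13, adjusted p = 2.88e-07), with 74.2 and 72.8 FPKM at wild type P30. *Pdpn*, the lymphatic and stromal glycoprotein podoplanin that activated macrophages also carry, rose from 2.58 and 2.4 FPKM to 126 and 124 FPKM (5.18), and *Sdc1*, the proteoglycan syndecan 1, from 2.57 and 1.44 FPKM to 93.7 and 98.9 FPKM (5.04). *Npy*, a neuropeptide, *Syngr1*, a vesicle protein, *Mgp*, an inhibitor of calcification, and *Ptgds*, a prostaglandin D2 synthase, rose by 5.71, 5.28, 5.25 and 5.0 from under 2 FPKM in each wild type library. These 4 moved beside the melanocyte and fibroblast markers given above, and the part of those cells was not tested. Among the 15 largest falls, *Adam33*, a membrane protease, went from 35.4 and 37.5 FPKM to 0.88 and 1.26 FPKM (-4.18, adjusted p = 3.15e-05), and *Pla2g2d*, a secreted phospholipase of resident macrophages and dendritic cells, from 83.3 and 82.7 to 5.74 and 5.62 FPKM (-3.65). *Tnni3*, a cardiac troponin, fell to 0.46 and 0 FPKM (-3.5). Others have long transcripts and moved less with the length trend removed. *Atrx*, a chromatin remodeller, *Zbtb20*, a zinc finger repressor, *Ccdc88a*, an actin-binding protein, and *Ddx60*, a helicase, differed by -3.3, -3.25, -3.43 and -3.22 as deposited and by -2.39, -2.24, -2.55 and -2.49 with the length trend removed. *Plekhg5* and *Gbp7* fell by 3.38 and 3.38.

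CD45+ cells, leukocytes of dorsal skin sequenced as a separate group that can itself hold myeloid cells, were set beside the myeloid cells with no test, because their table was normalized separately. There a gene counted as changed where the 2 mutant and 2 wild type P56 libraries did not overlap and their means differed 2-fold, which held for 11.8% (higher) and 5.94% (lower) of the genes tested in myeloid cells. Of the 936 genes higher in mutant myeloid cells, 326 (34.8%) were also higher in mutant CD45+ cells and 93 (9.94%) lower, and the 326 were 24.7% of the 1318 genes higher there. Of the 2121 lower genes, 152 (7.17%) were also lower, near the 5.94% of all genes, and 167 (7.87%) were higher, under the 11.8%. The 152 were 23.0% of the 662 genes lower there. *Spp1* was 17.3 and 16.1 FPKM in wild type and 402 and 445 FPKM in mutant CD45+ libraries (difference 4.58). *Gpnmb*, *Trem2*, *Mmp12* and *Acp5* differed there by 4.87, 3.69, 3.76 and 3.56. *Ccl5* differed by 2.39 and *Rsad2* by 1.79. Of the tissue macrophage genes that fell in myeloid cells, the differences in CD45+ cells were 0.57 for *Mrc1*, 0.85 for *Folr2* and 0.32 for *Csf1r*, while *Cd163* differed by -1.0. *Itgav* stood at 74.3 and 73.8 FPKM and 41.8 and 41.7 FPKM (difference -0.81), while it rose in myeloid cells. Whether the differences of myeloid and CD45+ cells differ from each other was not tested.

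**Figure D5:**
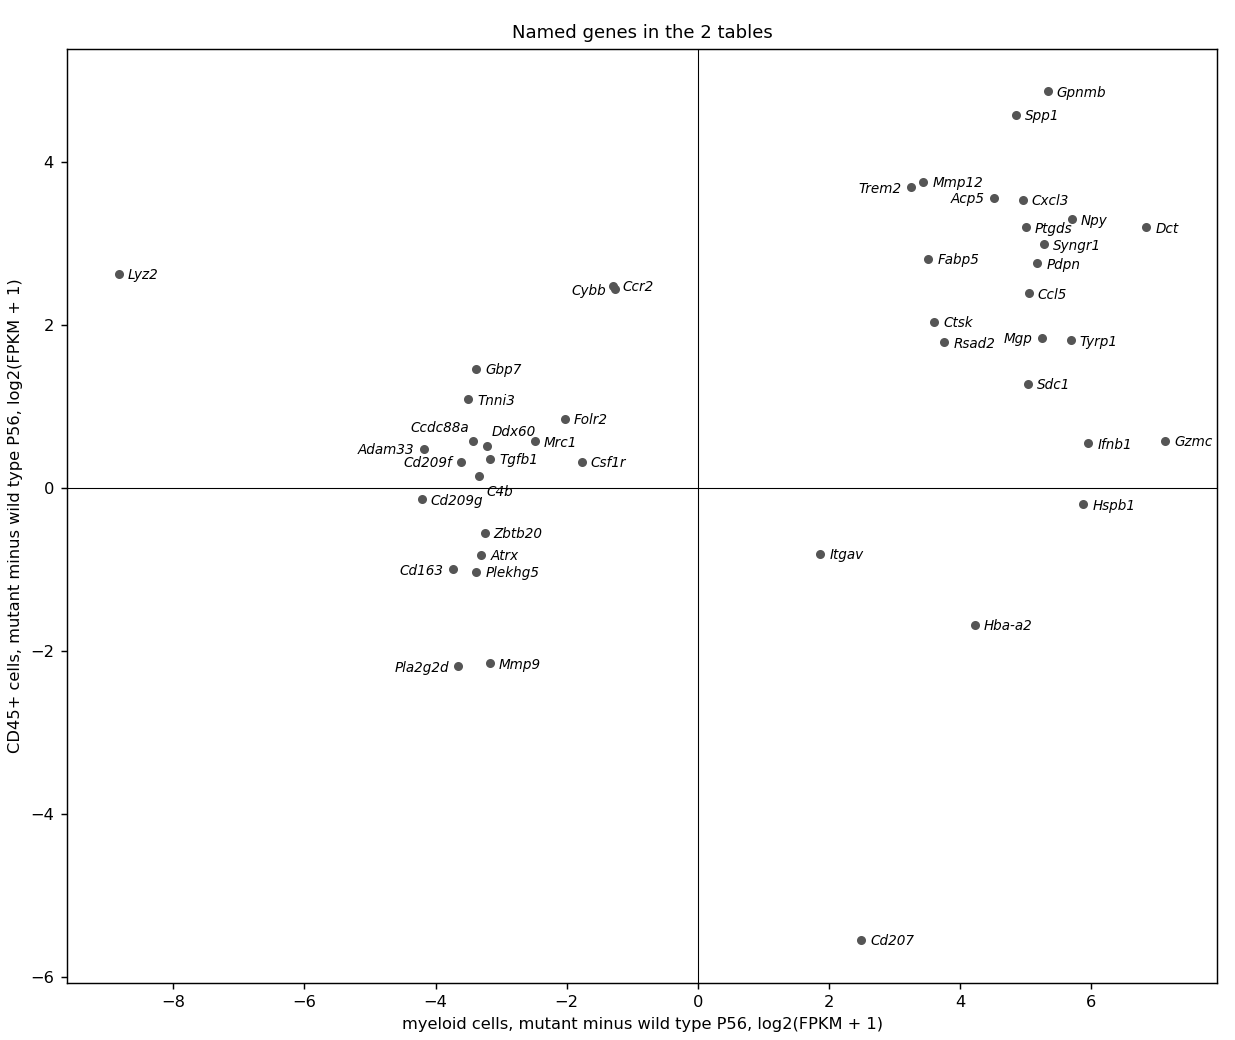
Difference in log2(FPKM + 1), mutant minus wild type P56, in CD45+ cells (vertical) against myeloid cells (horizontal) for 45 named genes, those listed at 0 in both wild type myeloid libraries left out. *Gpnmb*, *Spp1*, *Trem2* and *Mmp12* lie high in both, while *Lyz2* (-8.83 and 2.63) and *Cd207* (2.49 and -5.55) lie on opposite sides.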

How the data were processed

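The authors prepared full-length cDNA libraries from sorted cells by a Smart-seq2 type protocol, aligned reads to mouse GRCm38 with STAR 2.4.2 (version from the submitters' processing notes) and estimated gene expression with RSEM. They deposited FPKM values per gene, with 1 table per cell type, and no read counts, so the depth per sample is unknown. Low values of the myeloid table were searched for the step of 1 read, and no bin of step sizes held more than 1.99% of genes, so reads could not be recovered. The count-based test of the study's methods could therefore not be used, and limma took its place.

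Protein-coding genes with FPKM of 1 or more in at least 2 of the 4 P56 libraries were taken to log2(FPKM + 1) and fitted with limma 3.58.1 in R 4.3.3 (variance trend on) over the 6 myeloid libraries, with a pseudocount of 1. A gene was called at a Benjamini-Hochberg adjusted p under 0.05 and a 2-fold change, two-sided. Values were used as deposited and, as alternatives, after median-ratio rescaling and after removal of a loess trend (span 0.5) with transcript length in each library, the last chosen after seeing the data. A total of 23 symbols of the myeloid table that had turned into dates were restored from their identifiers (27 in the CD45+ and 24 in the melanocyte table). Gene positions came from the GENCODE vM21 annotation of GRCm38 by identifier, and 99.1% of tested genes had a transcript length. The fitting was tested on simulated data. CD45+ and melanocyte tables were normalized separately and are given side by side with no test.

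Named genes were the 15 largest rises and 15 largest falls with a mean of 5 FPKM or more in groups that do not overlap, up to 5 called members of each of 40 lists, the 10 genes with the highest mean, and a few set genes such as *Spp1* and its receptors. The comparison, the lists and the genes were chosen with earlier results of these data known. Of 555 list genes 9 were not in the table. A few genes are not reported here. No per-sample columns were left out of use in the tables read.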

Additional observations from a re-analysis of the deposited data

Results flagged for a closer look

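The 22 results listed here are named genes that were called in one direction in mutant myeloid cells and that differed 2-fold, with no overlap between libraries, in the opposite direction in mutant CD45+ cells. Whether the 2 cell populations differ was not tested for any of them, and values are differences in log2(FPKM + 1) of mutant minus wild type P56 in CD45+ cells. Differences in CD45+ cells were positive for genes that fell in myeloid cells, with 2.63 for *Lyz2*, which went from 2335 and 2241 FPKM in wild type to 13844 and 14457 FPKM in mutant CD45+ libraries and can share reads with *Lyz1*. They were 2.44 for *Cybb*, 2.48 for *Ccr2*, 1.48 for *Itga4*, 1.47 for *Maf*, 1.46 for *Gbp7* and 1.46 for *Csf2ra*. They were 1.33 for *Aurkb*, 1.18 for *Clec10a*, 1.09 for *Tnni3* and 1.02 for *Cd209a*. The myeloid calls of *Cybb*, *Ccr2*, *Itga4* and *Csf2ra* were lost after rescaling. Those of *Cybb*, *Ccr2* and *Itga4* were also lost with the length trend removed.

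Differences in CD45+ cells were negative for genes that rose in myeloid cells. Langerhans cell markers were among them, with -5.55 for *Cd207* (765 and 735 FPKM in wild type and 14.4 and 15.6 FPKM in mutant CD45+ libraries) and -2.01 for *Epcam*. T and NK cell genes differed by -1.35 (*Nkg7*), -1.38 (*Thy1*) and -1.1 (*Cd3d*). Haemoglobin genes differed by -2.18 (*Hba-a1*), -1.68 (*Hba-a2*), -1.54 (*Hbb-bs*) and -1.37 (*Hbb-bt*). The EGF receptor ligand *Areg* differed by -2.18 and the clock gene *Ciart* by -1.47.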

How the results depend on the processing

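Median-ratio rescaling gave 1468 genes higher and 1332 lower in place of 936 and 2121, removal of the length trend (chosen after seeing the data) gave 1290 and 986, and no fold threshold gave 2562 and 4797. The cause of the length trend was not tested. Other settings kept both counts within 1.5 times. With libraries rescaled to 1 FPKM sum they were 822 and 2460, with a pseudocount of 0.1 they were 1147 and 2832, with no filter 950 and 2119, with a filter at 5 FPKM 668 and 1612, and with lncRNAs added 991 and 2273. Leaving out each of the 6 libraries in turn gave 917 to 945 higher and 2086 to 2150 lower, where the group left with 1 library was assumed to vary like the others.

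With the replicate number as a block the counts were 938 and 2121, and the call of none of the 190 named genes tested changed. Same-numbered libraries did not deviate together (r = -0.0049, 0.0168 and 0 across the 3 pairs of groups). With 2 libraries a group this cannot exclude a shared origin, and no label says whether the numbers mark pairs.

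No named gene that was called, as deposited or under the setting, changed direction. Genes called in neither were not checked for a change of direction, and small differences among them can change sign with rescaling. Rescaling took the call of 10 of 190 named genes (among them *Cybb*, *Ptprc*, *Ccr2*, *Gpr141*, *Itga4*, *Nod1*, *Tmem173*, *Csf2ra* and *Glb1*) and gave it to *Ftl1*. Removal of the length trend took it from 12 (*Cybb*, *Ptprc*, *Ccr2*, *Plac8*, *Gpr141*, *Itga9*, *Itga4*, *Tlr8*, *Nod1*, *Tmem173*, *Mki67* and *Glb1*) and gave it to *Nras* (higher) and to *Cd74* and *Ccl8* (lower). Leaving out 1 library changed the call of 4 genes that lie at the 2-fold threshold. *Csf2rb* lost it without wild type P56 replicate 2 (0.99), *Flt1* (-1.04) and *Itgam* (-1.01) gained it without mutant P56 replicate 1 and *Cd74* (-1.01) without mutant P56 replicate 2. With libraries rescaled to 1 FPKM sum, *Csf2rb* (0.89) and *Csf2rb2* (0.95) lost it and *Flt1* (-1.01), *Itgam* (-1.08) and *Cd74* (-1.09) gained it, and with a pseudocount of 0.1 *Flt1* (-1.01) and *Itgam* (-1.01) gained it. Of the 80 list counts, 19 moved by over 1.5 times with rescaling and 16 with the length trend removed. Depth, which is unknown, and 2 libraries a group limit what the values can show.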
